A study of Mus musculus with 16 samples.

Results

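The genes followed here are p53 itself (Trp53) and established targets of it, 34 genes in all, taken from the 55416 genes of the count tables by matching Ensembl identifiers to mouse symbols. All 34 were matched to an identifier, and all 34 passed the filter on low counts that left 14770 genes for testing. They were grouped by role into p53 and its feedback regulators, arrest and growth genes, death receptors, apoptosis genes, repair genes and metabolic genes. The livers came from 16 wild-type C57BL/6J mice in 4 groups of 4. Each mouse, at an age of 8 weeks, had received an adenovirus through the tail vein, either a control virus (Ad-CTRL) or one that overexpresses the ubiquitin-like modifier FAT10 (Ad-FAT10). After 4 days the mice were given by gavage either carboxymethyl cellulose vehicle (CMC) or pemafibrate (Pema), a PPARα agonist, at 1 mpk, at 18 h and at 5 h before the liver was removed, and they were fasted for 5 h. The groups are named by virus and treatment, as in Ad-CTRL CMC or Ad-FAT10 Pema. Every mouse carried an adenovirus and no uninjected liver was compared, and the promoter that drives FAT10 is not given in the sources used here. An effect of FAT10 and an effect of a different vector load or vector response in the Ad-FAT10 livers cannot be told apart in this design.

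The transcription factor p53 is held at a low protein level by the ubiquitin ligase Mdm2, which is itself a p53 target, so that p53 limits its own activity. When DNA damage, stalled replication, nucleolar stress or oncogene activity releases p53 from Mdm2, it binds paired elements near target genes and raises genes that stop the cell cycle, repair DNA, change metabolism or start apoptosis. Much of its regulation is on the protein, which RNA counts do not measure. In liver, p53 and its target p21 (Cdkn1a) are best known for restraining hepatocyte division during regeneration and after injury, and several targets also answer other factors, including nuclear receptors and stress kinases.

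Levels are given in CPM, counts scaled to a common library size. The libraries held between 18663498 and 28898229 counts, and a count of 0 allows a level of up to 3 counts, or 0.089 to 0.176 CPM by library (counting error only). Ubd, the gene of FAT10, lay between 8.64 and 15.2 CPM in Ad-CTRL CMC, 14.2 and 47.8 CPM in Ad-CTRL Pema, 110 and 339 CPM in Ad-FAT10 CMC, and 391 and 546 CPM in Ad-FAT10 Pema. The viruses did not overlap. With pemafibrate Ubd rose by a log2 change of 1.30 in Ad-CTRL livers (edgeR, adjusted p = 0.00945), where the treatments overlapped. In Ad-FAT10 livers it rose by 0.96 (edgeR, adjusted p = 0.0413), without overlap. In both viruses the comparisons of pemafibrate with CMC are thus also comparisons of livers that differ in Ubd level. The part of Ubd in the members' changes with the drug was not tested. The 6 hepatocyte markers, among them Alb and Hnf4a, were present in all libraries, with a summed level of 77400 to 105000 CPM with Ad-CTRL and 52900 to 62200 CPM with Ad-FAT10 under CMC, and of 67700 to 94600 and 39200 to 59200 CPM under pemafibrate. Ly6g, a neutrophil marker, was at 0 in 6 libraries, and no other marker of a liver or blood cell type was at 0 in any.

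Short stretches of the promoters are shown first, because matches to the p53 element at these genes give a sequence context for the members. Of the 34 members, 26 had a promoter window of 300 bases (250 before and 50 after an annotated start, RefSeq, GRCm38.p6), and Ddb2, Perp, Zmat3, Trp53inp1, Rrm2b, Tnfrsf10b, Pmaip1 and Xpc had none. Windows were searched on both strands for the p53 response element, counted as a pair of p53 half-sites with intact cores, a spacer of 0 to 13 bases and at most 2 mismatches in all. Such a pair was found in 4 of the 26 member genes (15.4%) and in 667 of 27025 genes of the same table (2.47%). An exact single half-site, which is 10 bases long, was found in 12 of 26 members (46.2%) and in 2582 of all genes (9.55%). The members were chosen as established p53 targets, so these shares are not a test of the list. Letters in capitals mark the half-sites, including any mismatched bases. Lower case marks the spacer and 20 bases of flank on each side, and every stretch is written on the strand of its gene. The 4 pairs were in Cdkn1a (chr17:29090908-29090967, plus strand, adjacent, 1 mismatch, at -51 to -32 from the upstream of 2 starts that lie 2790 bases apart), Bax (chr7:45467059-45467119, minus strand, spacer of 1 base, 2 mismatches, at -201 to -181), Ckap2 (chr8:22185983-22186042, minus strand, adjacent, 2 mismatches, at -203 to -184) and Sesn1 (chr10:41887233-41887295, plus strand, spacer of 3 bases, 2 mismatches, at -186 to -164).
Cdkn1a: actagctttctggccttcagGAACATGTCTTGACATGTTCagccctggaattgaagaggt
Bax: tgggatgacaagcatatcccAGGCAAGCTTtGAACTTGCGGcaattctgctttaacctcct
Ckap2: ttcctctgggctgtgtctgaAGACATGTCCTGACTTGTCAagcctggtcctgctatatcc
Sesn1: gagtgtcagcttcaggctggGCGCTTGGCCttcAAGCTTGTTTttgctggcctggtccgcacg

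Single exact half-sites at p53 and at its feedback genes are shown for the same purpose. They lay in Trp53 (chr11:69580264-69580313, plus strand, at -75 to -66), Mdm2 (chr10:117710915-117710964, minus strand, at -186 to -177) and Ccng1 (chr11:40755442-40755491, minus strand, at -185 to -176).
Trp53: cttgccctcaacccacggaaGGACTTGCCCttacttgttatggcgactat
Mdm2: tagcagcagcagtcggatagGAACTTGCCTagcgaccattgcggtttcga
Ccng1: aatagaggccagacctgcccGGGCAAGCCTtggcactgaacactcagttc
The windows of Eda2r and Phlda3 held no match, which says only that these letters are not in those windows.

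With Ad-FAT10, most members rose. Under CMC, 23 of the 34 members passed as higher and 6 as lower (edgeR quasi-likelihood test, p under 0.05 after Benjamini-Hochberg adjustment across every tested gene), where 22.5% of all genes tested passed as higher and 20.2% as lower. Under pemafibrate, 21 members passed as higher and 4 as lower, beside 21.2% and 20.5% of all genes. The median log2 change of the members was 0.75 under CMC and 0.79 under pemafibrate, beside -0.01 and -0.02 over all genes tested. These comparisons share no library: 21 members were higher in both, 3 were lower in both, 2 passed as higher and 3 as lower under CMC and not under pemafibrate, 1 passed as lower under pemafibrate and not under CMC, and 4 passed in neither (the difference itself is tested by the interaction). Of the members 12 were at least 2-fold higher in both (Cdkn1a, Ddit4, Zmat3, Ckap2, Psrc1, Eda2r, Tnfrsf10b, Pmaip1, Pidd1, Apaf1, Phlda3 and Polk). In 23 members every Ad-FAT10 CMC liver lay above every Ad-CTRL CMC liver and in 5 every one lay below, where 20.3% and 17.8% of all genes were so ordered. Scaling by library totals moved the median of all genes to 0.28 under CMC and 0.34 under pemafibrate. The share of higher calls then went from 52.7% to 85.7% of called genes (6365 higher, 1061 lower) under CMC and from 50.9% to 89.7% (7204 higher, 826 lower) under pemafibrate, and the members to 24 higher and 1 lower, and 25 higher and 3 lower. The changes below are relative to the median gene.

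**Figure D1:**
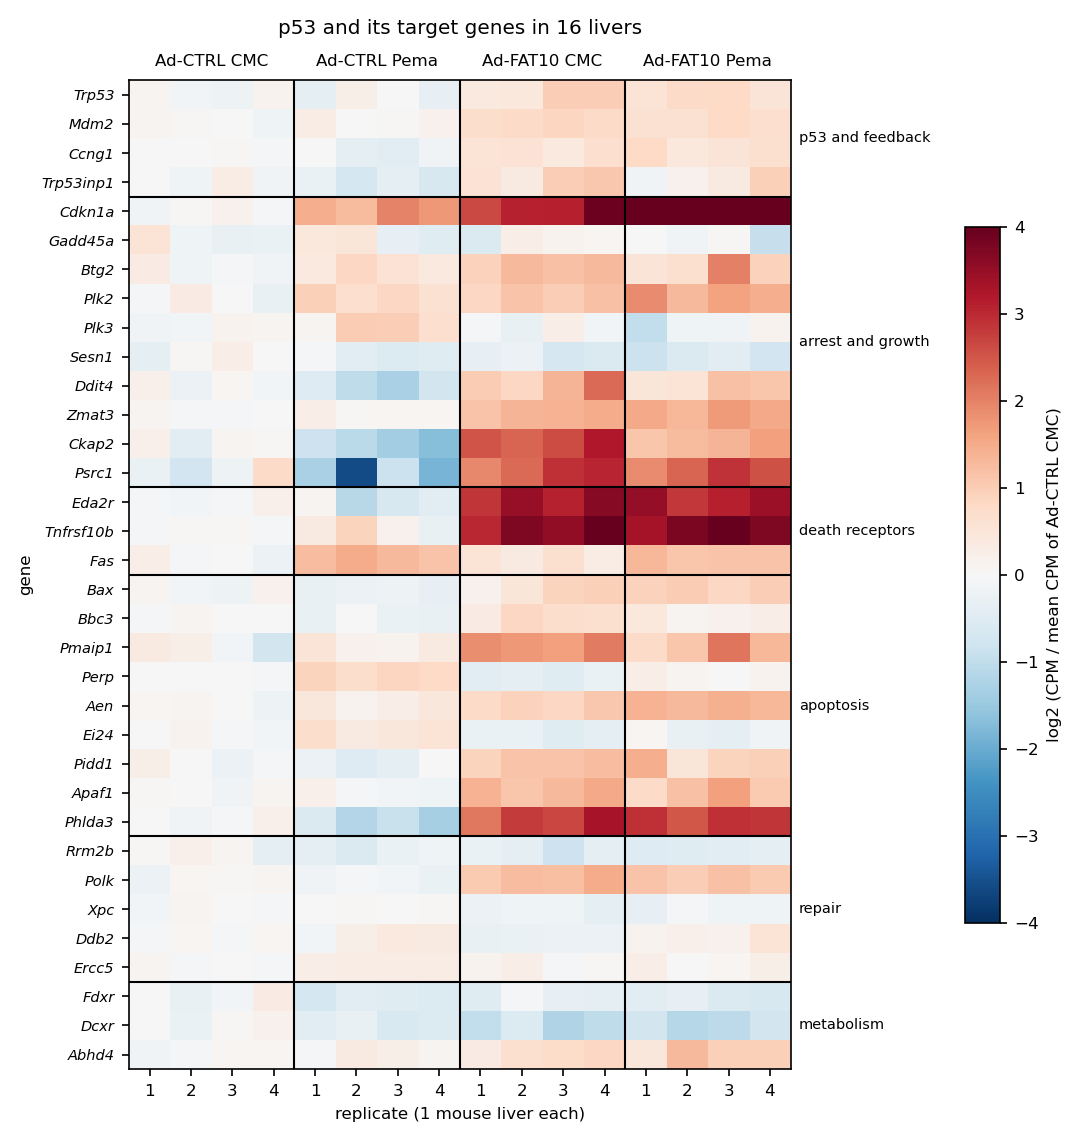
Each row is 1 of the 34 genes and each column 1 of the 16 livers, and colour gives log2 of the CPM over the mean CPM of the 4 Ad-CTRL CMC livers (colours stop at -4 and 4, which Cdkn1a and Tnfrsf10b pass in some livers). Cdkn1a, Ckap2, Psrc1, Eda2r, Tnfrsf10b and Phlda3 are red in all 8 Ad-FAT10 livers, while Cdkn1a, Fas and Perp also redden with pemafibrate in the Ad-CTRL livers.

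The 4 genes of p53 and its feedback all rose in both adenovirus comparisons, by less than 2-fold. Trp53 (ENSMUSG00000059552), the gene of p53, measured 25.4, 21.8, 20.4 and 25.6 CPM in the Ad-CTRL CMC livers and 30.7, 30.9, 45.9 and 45.8 CPM in the Ad-FAT10 CMC livers (replicates 1 to 4 in each list). The pemafibrate livers gave 17.8, 27.4, 23.3 and 18.7 CPM with Ad-CTRL and 34.3, 39.9, 40.6 and 33.2 CPM with Ad-FAT10. All 8 Ad-FAT10 livers lay above all 8 Ad-CTRL livers, and the Ad-FAT10 CMC livers fell into a lower and a higher pair. The log2 change was 0.72 ± 0.15 (SE, adjusted p = 0.0013) under CMC and 0.76 ± 0.16 (adjusted p = 0.000826) under pemafibrate.

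Mdm2 (ENSMUSG00000020184), the ligase that degrades p53, measured 39.5, 38, 36.2 and 32.6 CPM in Ad-CTRL CMC and 59.8, 62.7, 65.8 and 62.4 CPM in Ad-FAT10 CMC. With pemafibrate its levels were 44.9, 36.2, 37.6 and 40.8 CPM with Ad-CTRL and 55.9, 56, 63.3 and 58.8 CPM with Ad-FAT10. The Mdm2 levels were tight within each group, and no Ad-FAT10 liver overlapped an Ad-CTRL liver. Mdm2 rose by 0.78 ± 0.08 with vehicle (1.71-fold, adjusted p = 2.63e-06) and by 0.55 ± 0.08 with pemafibrate (1.47-fold, adjusted p = 7.15e-05). Ccng1, cyclin G1, which feeds back on Mdm2 through a phosphatase, measured 45.8, 46.1, 47.5 and 44.1 CPM in Ad-CTRL CMC against 67.6, 68.5, 59.7 and 72.5 CPM in Ad-FAT10 CMC (0.55 ± 0.10, adjusted p = 0.000485). Its change under pemafibrate was 0.83 ± 0.11 (adjusted p = 1.51e-05). Trp53inp1, a nuclear protein that promotes p53 phosphorylation and autophagy, went from 77.6, 69.2, 95.2 and 70 CPM to 117, 101, 154 and 163 CPM under CMC (0.78 ± 0.20, adjusted p = 0.00438). Under pemafibrate it went from 64.8, 47.8, 61.3 and 50.1 CPM to 70.6, 87.5, 99.9 and 150 CPM (0.87 ± 0.20, adjusted p = 0.00212). Trp53inp1 was the most scattered of the 4 genes in the Ad-FAT10 Pema livers, where replicate 1 was only just above the Ad-CTRL Pema range.

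Among the 10 arrest and growth genes, 7 rose and 1 fell with Ad-FAT10 under CMC, and 6 rose and 1 fell under pemafibrate. Cdkn1a (ENSMUSG00000023067), which encodes the cyclin-dependent kinase inhibitor p21, had 4 group ranges that did not overlap. With Ad-CTRL it measured 4.34, 4.94, 5.36 and 4.48 CPM under CMC and 13.2, 11.4, 18.8 and 15.9 CPM under pemafibrate. With Ad-FAT10 it measured 29.9, 40.4, 41.6 and 72.6 CPM under CMC and 96, 74.9, 115 and 91.7 CPM under pemafibrate. Its level was therefore lowest with neither agent and higher with the drug alone, the FAT10 virus alone and the combination, in that order, with the widest spread in Ad-FAT10 CMC, where replicate 4 was high. With Ad-FAT10 it rose by 3.27 ± 0.24 with vehicle (9.63-fold, adjusted p = 6.6e-08) and by 2.67 ± 0.22 with pemafibrate (6.36-fold, adjusted p = 3.49e-07).

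Ckap2 and Psrc1 are p53 targets whose products act on microtubules and the mitotic spindle. Ckap2 measured 1.82, 1.15, 1.71 and 1.65 CPM in Ad-CTRL CMC and 9.03, 7.95, 9.75 and 14.6 CPM in Ad-FAT10 CMC. In the pemafibrate groups it stood at 0.882, 0.748, 0.599 and 0.485 CPM with Ad-CTRL and 3.4, 3.81, 4.04 and 4.91 CPM with Ad-FAT10. The 4 groups of Ckap2 were again separate, but in another order from Cdkn1a, with the lowest level in Ad-CTRL Pema and the highest in Ad-FAT10 CMC. It rose with Ad-FAT10 by 2.71 ± 0.21 (adjusted p = 1.31e-07) under CMC and by 2.58 ± 0.25 (adjusted p = 1.15e-06) under pemafibrate. Psrc1 measured 0.528, 0.37, 0.555 and 1.08 CPM in Ad-CTRL CMC and 2.38, 3.06, 4.84 and 5.25 CPM in Ad-FAT10 CMC. Under pemafibrate it measured 0.259, 0.0534, 0.349 and 0.176 CPM with Ad-CTRL and 2.35, 3.17, 4.66 and 3.68 CPM with Ad-FAT10. The viruses did not overlap in either treatment, and the Ad-CTRL Pema levels rested on few counts, near the limit of detection, so the size of the second change is uncertain. The log2 changes of Psrc1 were 2.62 ± 0.35 (adjusted p = 1.97e-05) and 4.01 ± 0.42 (adjusted p = 2.82e-06).

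The other arrest and growth genes were mixed. Ddit4, which restrains mTOR complex activity, rose by 1.48 ± 0.27 (adjusted p = 0.000297) under CMC and by 1.73 ± 0.28 under pemafibrate. Zmat3, an RNA-binding regulator of splicing, rose by 1.35 ± 0.10 and 1.42 ± 0.10, and Plk2, a kinase of centriole duplication, by 1.04 ± 0.14 and 0.81 ± 0.14. Btg2, an antiproliferative cofactor of mRNA deadenylation, rose by 1.18 ± 0.25 (adjusted p = 0.000992) under CMC. Its change of 0.61 ± 0.24 under pemafibrate did not pass (adjusted p = 0.0512), with replicate 3 of the Ad-FAT10 Pema livers at 85.2 CPM and the others at 30.1 to 40.5 CPM. That change passed with DESeq2 (adjusted p = 0.038), with no filter on low counts (0.00255), with a filter at 1 CPM (0.0491) and with library totals (0.00298). It also passed without Ad-CTRL Pema replicate 2 (adjusted p = 0.0428) or Ad-FAT10 Pema replicate 1 (0.0118) or 2 (0.0259). Plk3, a stress-responsive kinase, fell by 0.97 ± 0.21 (adjusted p = 0.00117) under pemafibrate. The viruses overlapped there, at 127 to 236 CPM with Ad-CTRL and 58.7 to 128 CPM with Ad-FAT10. The change of Plk3 under CMC was -0.03 with a 95% interval of -0.48 to 0.42. Sesn1, a sestrin that restrains mTORC1, fell by 0.44 ± 0.15 under CMC (adjusted p = 0.0252). That call was lost with library totals (-0.15, adjusted p = 0.449) and without Ad-CTRL CMC replicate 2 (-0.42, adjusted p = 0.0564) or 3 (-0.34, 0.0994) or Ad-FAT10 CMC replicate 3 (-0.37, 0.0818) or 4 (-0.39, 0.0709). Gadd45a, a stress-induced partner of p21 and PCNA, passed in none of the comparisons, at 0.03 (95% interval -0.56 to 0.62) and -0.29 (-0.87 to 0.30).

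The death receptors held the largest changes among the members with Ad-FAT10 under CMC. Tnfrsf10b (ENSMUSG00000022074), the receptor for the ligand TRAIL, measured 0.469, 0.508, 0.508 and 0.463 CPM in Ad-CTRL CMC and 3.94, 6.5, 5.67 and 7.69 CPM in Ad-FAT10 CMC. The pemafibrate livers gave 0.622, 0.908, 0.549 and 0.397 CPM with Ad-CTRL and 4.9, 6.67, 9.32 and 6.44 CPM with Ad-FAT10. All 8 Ad-FAT10 livers were above all 8 Ad-CTRL livers by a wide gap. The rises were 3.60 ± 0.28 (12.1-fold, adjusted p = 1.14e-07) under CMC and 3.48 ± 0.27 (11.1-fold, adjusted p = 1.59e-07) under pemafibrate.

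Eda2r (ENSMUSG00000034457), the X-linked receptor for the A2 form of ectodysplasin, measured 1.11, 1.06, 1.11 and 1.34 CPM in Ad-CTRL CMC and 8.39, 13, 9.65 and 14.4 CPM in Ad-FAT10 CMC. With pemafibrate its levels were 1.24, 0.534, 0.748 and 0.837 CPM with Ad-CTRL and 13.2, 8.28, 9.97 and 12.3 CPM with Ad-FAT10. As for Tnfrsf10b, there was a gap between the viruses and overlap between the treatments within each virus. Eda2r rose by 3.30 ± 0.23 (9.83-fold, adjusted p = 5.16e-08) and by 3.69 ± 0.24 (12.9-fold, adjusted p = 3.93e-08). Fas, the receptor for Fas ligand, followed the drug more than the virus. The CMC livers measured 24.2, 19.4, 20.3 and 17.2 CPM with Ad-CTRL and 29.8, 25.9, 31.6 and 25 CPM with Ad-FAT10. The pemafibrate livers measured 48.1, 57.1, 50 and 44.5 CPM with Ad-CTRL and 51.3, 44, 44.6 and 44.4 CPM with Ad-FAT10. The viruses were separate under CMC and overlapped under pemafibrate. The change with Ad-FAT10 was 0.47 ± 0.11 (1.39-fold, adjusted p = 0.00255) under CMC and -0.11 under pemafibrate, with a 95% interval of -0.35 to 0.12 (adjusted p = 0.408).

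**Figure D2:**
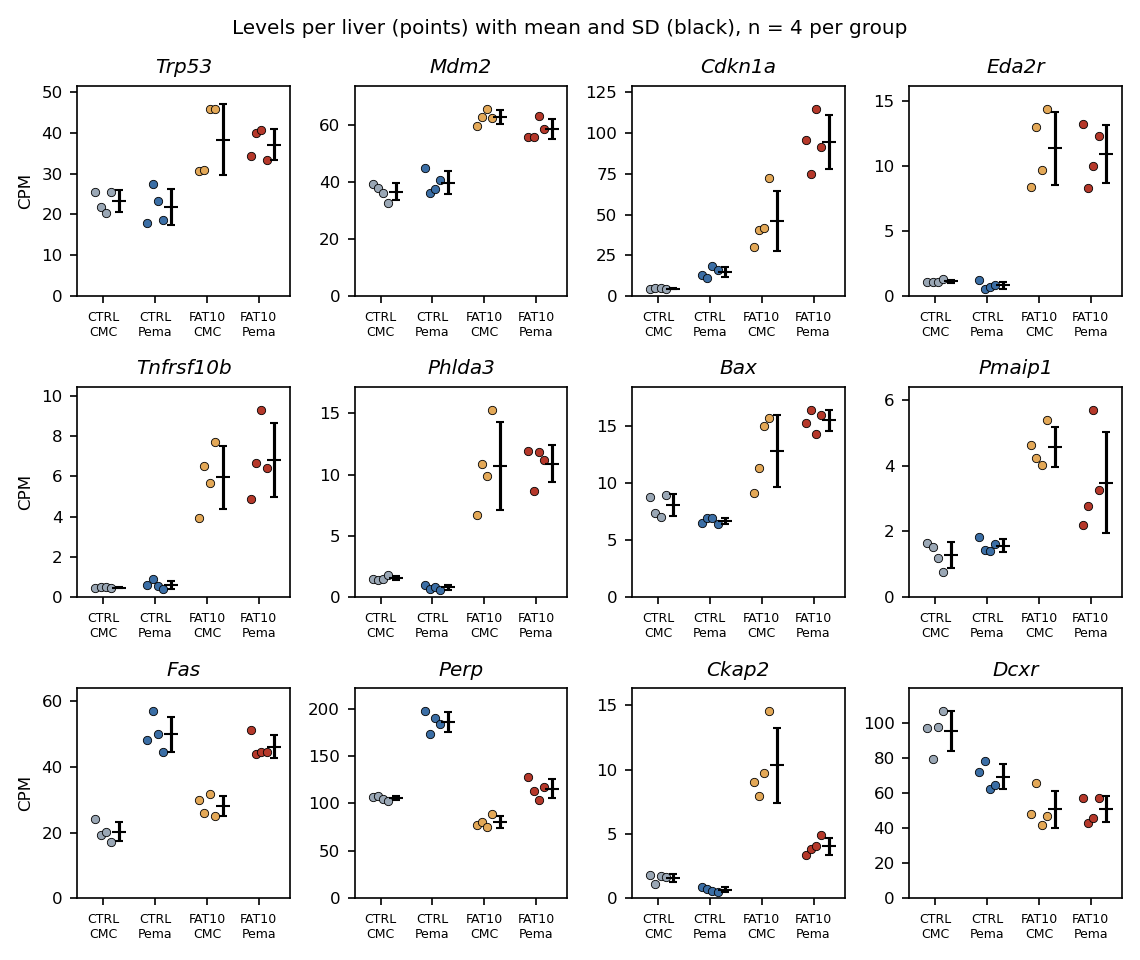
CPM of 12 members in each liver (points), with the mean and SD of the 4 livers of a group in black. Cdkn1a rises in 4 separate steps, Eda2r and Tnfrsf10b separate the viruses and overlap between treatments, Phlda3 separates the viruses and is also lower with pemafibrate in the Ad-CTRL livers, and Fas and Perp are high in the pemafibrate groups.

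All 9 apoptosis genes passed with Ad-FAT10 in both treatments, 7 higher and 2 lower. Phlda3 (ENSMUSG00000041801), a pleckstrin-homology protein that competes with Akt for membrane lipids, measured 1.53, 1.43, 1.48 and 1.8 CPM in Ad-CTRL CMC and 6.7, 10.9, 9.86 and 15.3 CPM in Ad-FAT10 CMC. In the pemafibrate groups it stood at 1.04, 0.695, 0.848 and 0.617 CPM with Ad-CTRL and 11.9, 8.66, 11.8 and 11.2 CPM with Ad-FAT10. The viruses were separate in both treatments. Phlda3 rose by 2.78 ± 0.22 (6.87-fold, adjusted p = 1.58e-07) and by 3.77 ± 0.24 (13.7-fold, adjusted p = 3.93e-08).

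Bax (ENSMUSG00000003873), which opens the outer mitochondrial membrane, measured 8.74, 7.39, 7.02 and 8.95 CPM in Ad-CTRL CMC and 9.13, 11.3, 15 and 15.7 CPM in Ad-FAT10 CMC. Under pemafibrate it measured 6.53, 6.89, 6.93 and 6.43 CPM with Ad-CTRL and 15.2, 16.4, 14.3 and 15.9 CPM with Ad-FAT10. The Bax groups were apart in both treatments, narrowly under CMC, where Ad-FAT10 replicate 1 was close to the highest control. The changes were 0.68 ± 0.14 (adjusted p = 0.00112) and 1.21 ± 0.14 (adjusted p = 8.96e-06). Pmaip1, which encodes the BH3-only protein Noxa, measured 1.64, 1.52, 1.2 and 0.772 CPM in Ad-CTRL CMC and 4.63, 4.24, 4.01 and 5.39 CPM in Ad-FAT10 CMC. The pemafibrate livers gave 1.82, 1.44, 1.4 and 1.63 CPM with Ad-CTRL and 2.2, 2.78, 5.7 and 3.25 CPM with Ad-FAT10, where replicate 3 was the highest. It rose by 1.83 ± 0.27 (adjusted p = 5.22e-05) and by 1.16 ± 0.27 (adjusted p = 0.0021). Apaf1, the scaffold of the apoptosome, went from 4.63, 4.53, 4.07 and 4.84 CPM to 11.8, 9.79, 11.1 and 12.8 CPM under CMC (1.33 ± 0.16, adjusted p = 7.58e-06). Under pemafibrate it went from 5.24, 4.27, 4.19 and 4.01 CPM to 7.72, 10.2, 14.1 and 9.24 CPM (1.22 ± 0.16, adjusted p = 2.03e-05). Neither Pmaip1 nor Apaf1 overlapped between the viruses in either treatment.

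The other 3 risers of this group rose in both treatments. Pidd1, which assembles a caspase-2 platform, rose by 1.11 ± 0.19 and 1.25 ± 0.19, and Aen, a nuclease that degrades DNA in apoptosis, by 0.90 ± 0.10 and 1.03 ± 0.09. Bbc3, which encodes the BH3-only protein Puma, rose by 0.63 ± 0.12 (adjusted p = 0.000347) and 0.45 ± 0.12 (adjusted p = 0.00488). Perp, a tetraspan membrane protein of desmosomes, went the other way. Perp stood at 106 ± 2.49 CPM in Ad-CTRL CMC and at 80.4 ± 5.95 CPM in Ad-FAT10 CMC, and at 186 ± 10.5 and 115 ± 10 CPM under pemafibrate (SD, n = 4). Perp fell by 0.39 ± 0.08 (adjusted p = 0.000998) under CMC, a call lost with library totals (-0.10, adjusted p = 0.371), and by 0.69 ± 0.08 (adjusted p = 8.12e-06) under pemafibrate. Ei24, an endoplasmic reticulum protein of autophagy, fell by 0.70 ± 0.11 (adjusted p = 0.000103) under pemafibrate and by 0.34 ± 0.11 (adjusted p = 0.018) under CMC. The latter was lost with library totals (-0.06, adjusted p = 0.703) and without Ad-CTRL CMC replicate 2 (-0.30, adjusted p = 0.0603) or Ad-FAT10 CMC replicate 3 (-0.30, 0.0598).

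Of the 5 repair genes, only Polk passed in both adenovirus comparisons. Polk, a translesion DNA polymerase, measured 3.81, 4.76, 4.62 and 4.84 CPM in Ad-CTRL CMC and 9.22, 10.6, 10.4 and 12.5 CPM in Ad-FAT10 CMC. With pemafibrate its levels were 4.05, 4.27, 4.19 and 3.75 CPM with Ad-CTRL and 9.88, 8.92, 10.1 and 9.33 CPM with Ad-FAT10. The groups were far apart, with rises of 1.24 ± 0.12 (adjusted p = 6.84e-07) and 1.23 ± 0.12 (adjusted p = 1.15e-06). Rrm2b, the p53-inducible subunit of ribonucleotide reductase, measured 4.52, 5.08, 4.71 and 3.34 CPM in Ad-CTRL CMC and 3.71, 3.4, 2.46 and 3.47 CPM in Ad-FAT10 CMC, with overlap through Ad-CTRL replicate 4. It fell by 0.44 ± 0.16 (adjusted p = 0.0325). The call was lost with library totals (-0.15), with no filter on low counts (adjusted p = 0.0929), with only the libraries of the groups compared (0.0653) and without Ad-CTRL CMC replicate 1 (-0.43, 0.0609), 2 (-0.37, 0.104) or 3 (-0.41, 0.0787) or Ad-FAT10 CMC replicate 3 (-0.33, 0.114). Under pemafibrate the change of Rrm2b was -0.10 (95% interval -0.45 to 0.25).

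Xpc, which recognises helix-distorting lesions, fell by 0.24 ± 0.08 under CMC (adjusted p = 0.0267), but its change was 0.05 (adjusted p = 0.632) with library totals. The fall also failed to pass with no filter (-0.23, adjusted p = 0.155), with only the libraries of the groups compared (adjusted p = 0.0529), and without Ad-CTRL CMC replicate 2 (-0.19, 0.092) or 3 (-0.23, 0.0557) or Ad-FAT10 CMC replicate 4 (-0.19, 0.0951). Under pemafibrate the change of Xpc was -0.20 (adjusted p = 0.0544). It passed with DESeq2 (adjusted p = 0.0445), with another scaling, RLE size factors (0.0487), and with a replicate block (0.046). It also passed without Ad-FAT10 CMC replicate 4 (adjusted p = 0.047) or Ad-FAT10 Pema replicate 2 (0.038). Ddb2, a sensor of ultraviolet damage, measured 3.28, 3.65, 3.33 and 3.65 CPM in Ad-CTRL CMC and 2.84, 2.91, 2.93 and 2.95 CPM in Ad-FAT10 CMC. These groups were apart, yet the change of -0.26 (95% interval -0.57 to 0.05) did not pass (adjusted p = 0.151). Ercc5, a nuclease of nucleotide excision repair, changed by 0.11 (-0.08 to 0.29) and -0.14 (-0.32 to 0.04), and passed in neither.

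The 3 metabolic members differed from each other. Dcxr, a reductase of L-xylulose and dicarbonyls, measured 97.2, 79.3, 97.6 and 107 CPM in Ad-CTRL CMC and 48.1, 65.9, 41.6 and 47.1 CPM in Ad-FAT10 CMC. In the pemafibrate groups it stood at 71.7, 78.1, 62.5 and 64.6 CPM with Ad-CTRL and 57.3, 43.1, 46 and 57.3 CPM with Ad-FAT10. No Ad-FAT10 liver reached an Ad-CTRL liver of the same treatment. Dcxr fell by 0.91 ± 0.14 (adjusted p = 6.38e-05) under CMC and by 0.44 ± 0.14 (adjusted p = 0.0152) under pemafibrate, where the call was lost with library totals (-0.08, adjusted p = 0.594) and without Ad-FAT10 Pema replicate 2 (-0.37, 0.0558). Abhd4, a lipase of N-acyl phospholipids, went from 38.4, 41.1, 44.8 and 44.9 CPM to 52.7, 65.7, 69.9 and 75.8 CPM under CMC (0.64 ± 0.15, adjusted p = 0.00196). Under pemafibrate it went from 40.1, 54.7, 50 and 45.6 CPM to 58.2, 103, 82.4 and 81.4 CPM (0.77 ± 0.15, adjusted p = 0.000452), and the viruses did not overlap in either treatment. Fdxr, the mitochondrial ferredoxin reductase, measured 24, 19.5, 22.6 and 30.5 CPM in Ad-CTRL CMC and 17.3, 23.1, 19.1 and 18.9 CPM in Ad-FAT10 CMC, which overlapped. Its changes of -0.30 (95% interval -0.57 to -0.03, adjusted p = 0.0608) and 0.06 (-0.21 to 0.34) did not pass. The first passed with RLE size factors (adjusted p = 0.0425), with DESeq2 (0.039) and without replicate 2 of Ad-CTRL CMC (0.0204) or of Ad-FAT10 CMC (0.017). The second passed as a rise with library totals (0.43, adjusted p = 0.00521).

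**Figure D3:**
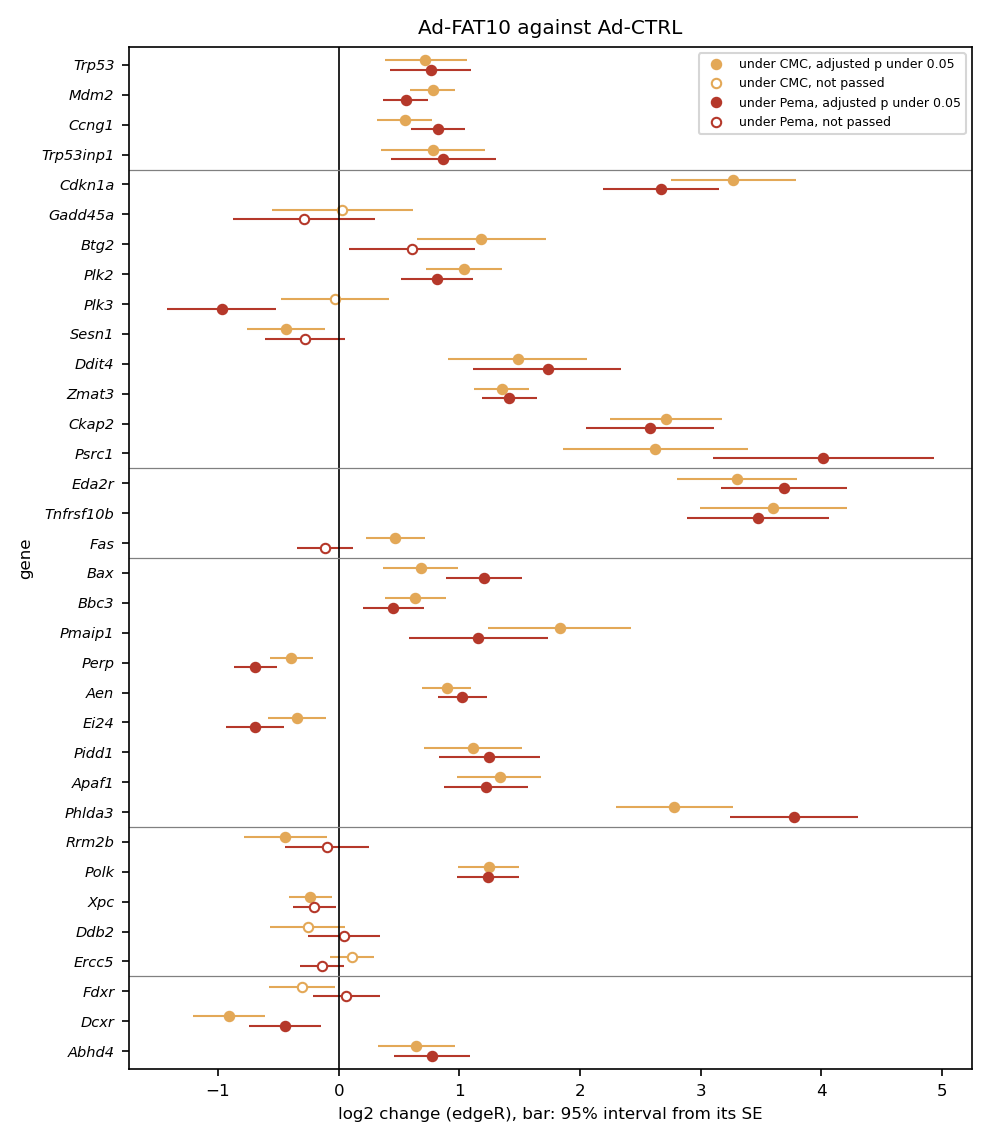
Log2 change of each member with Ad-FAT10 against Ad-CTRL under CMC and under pemafibrate, with its 95% interval and filled points where the adjusted p was under 0.05. The death receptors Eda2r and Tnfrsf10b, with Cdkn1a, Ckap2, Psrc1 and Phlda3, lie beyond 2.5 in both treatments, and Perp, Ei24 and Dcxr lie below 0 in both.

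The Ad-FAT10 CMC livers were not alike in these genes. Replicate 4 was the highest of its group in 19 of the 23 members that rose under CMC, and replicate 1 was the lowest in 16. Ubd measured 110.5, 166.6, 339.3 and 330.2 CPM in replicates 1 to 4. The summed level of 20 mitotic genes was 233, 188, 252 and 307 CPM in the same livers, and that of the 6 neutrophil markers 62.4, 90.1, 37.3 and 36.8 CPM. Replicate 4 was thus high in members and mitotic genes and low in neutrophil markers, and the part of FAT10 level or cell content in this order was not tested. The strand setting of the counting is not given in the sources used here. Exons of Cdkn1a, Ddb2, Ei24, Gadd45a, Plk3 and Rrm2b overlap a gene on the other strand, over 3.32% of exon length in Plk3 to 23.8% in Ddb2, and those of Bax overlap a gene on the same strand over 12.2%, so some reads of these 7 genes may belong to their neighbours.

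**Figure D4:**
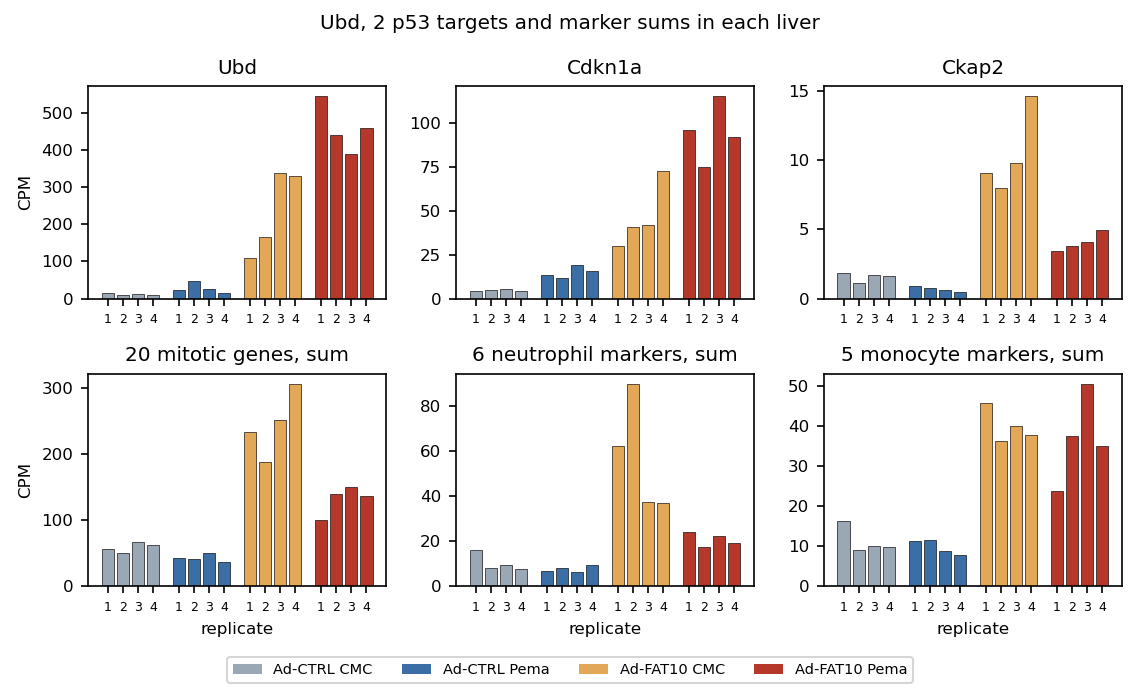
CPM of Ubd, Cdkn1a and Ckap2 and summed CPM of mitotic genes, neutrophil markers and monocyte markers in each of the 16 livers, with bars coloured by group and starting at 0. All 6 panels are higher in the Ad-FAT10 CMC livers than in the Ad-CTRL CMC livers, Cdkn1a is highest in Ad-FAT10 Pema, and Ckap2 and the mitotic sum are lower there than in Ad-FAT10 CMC.

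Genes around the members were counted from lists drawn up by function. Like the members, these lists were chosen with earlier results of these data known, so their counts are not a test of the lists. Of all genes tested, 22.5% rose and 20.2% fell with Ad-FAT10 under CMC, and 21.2% and 20.5% under pemafibrate. Of 20 mitotic genes that p21 and the DREAM complex repress when p53 is active, 20 rose with Ad-FAT10 under CMC, with a median of 2.07, and 19 under pemafibrate. Cdc20, an activator of the anaphase-promoting complex, rose by 2.49 ± 0.18 and Top2a, the replicative topoisomerase, by 2.47 ± 0.18 under CMC, beside the 9.63-fold rise of Cdkn1a in the same livers. Of 17 cyclins, kinases and other partners of p21, 12 rose and 2 fell under CMC. The cyclin Ccnb1 rose by 2.66 ± 0.21, its kinase Cdk1 by 2.13 ± 0.18 and the pocket protein Rbl1 by 1.80 ± 0.12, while Cdk6 fell by 0.60 ± 0.13. Of 19 tested p53 targets outside the members, 10 rose and 1 fell under CMC and again under pemafibrate. Gdf15, a stress hormone, rose by 2.79 ± 0.33 under CMC, Dram1, a lysosomal protein of autophagy, by 1.86 ± 0.18, and Gtse1, a spindle protein that exports p53 from the nucleus, by 1.80 ± 0.28, while the thiamine transporter Slc19a2 fell by 0.40 ± 0.11.

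Of 18 tested regulators of p53, 6 rose and 3 fell under CMC, beside 22.5% higher and 20.2% lower of all genes tested. Chek1, the replication checkpoint kinase, rose by 2.78 ± 0.29 from 0.629 ± 0.42 to 4.21 ± 0.461 CPM (SD, n = 4). Daxx, a partner of Mdm2, rose by 0.51 ± 0.11 and Ppm1d, the phosphatase Wip1, by 0.51 ± 0.13, and the ribosomal protein gene Rpl11, whose product can inhibit Mdm2, fell by 0.53 ± 0.13. Mdm4, the other main inhibitor of p53, changed by 0.17 (adjusted p = 0.0927). Of 21 tested genes of the BCL2 and caspase families and their ligands, 6 rose and 1 fell under CMC, beside the same shares of all genes. The survival factor Mcl1 rose by 0.41 ± 0.08 and the BH3-only gene Bcl2l11 by 0.68 ± 0.13, while the adaptor Fadd fell by 0.47 ± 0.10.

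Markers of other cell types moved with the virus as well. All 5 monocyte markers rose under CMC, their sum lying at 9.05 to 16.4 CPM with Ad-CTRL and at 36.4 to 45.9 CPM with Ad-FAT10, and under pemafibrate at 7.67 to 11.6 and 23.7 to 50.7 CPM. The 5 tested of 6 neutrophil markers rose, the sum of the 6 being 7.77 to 16.1 CPM with Ad-CTRL and 36.8 to 90.1 CPM with Ad-FAT10, and under pemafibrate 6.19 to 9.3 and 17.2 to 23.9 CPM. Of 6 T and NK cell markers 4 rose, with sums of 8.69 to 18.1, 24 to 28.7, 7.89 to 12.6 and 17.8 to 40 CPM in the same order. Hepatocyte markers fell in 5 of 6, Kupffer cell markers fell in 4 of 6 and rose in 1, B cell markers fell in 4 of 4, endothelial markers in 3 of 5 and stellate cell markers in 4 of 5, and 1 of 4 bile duct markers rose. In whole liver, fewer cells of a type and less RNA per cell cannot be told apart, and the part of other cell types in the changes of the members was not tested.

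Fewer members, and also fewer of all genes tested, passed with pemafibrate than with Ad-FAT10, and in both directions. In Ad-CTRL livers 8 members rose and 6 fell, where 16.2% of all genes tested were higher and 14.4% lower, and the median log2 change of the members was -0.01. In Ad-FAT10 livers 6 rose and 2 fell, beside 12.9% and 12.5% of all genes. These comparisons share no library: 5 members rose in both (Cdkn1a, Plk2, Fas, Perp and Aen) and Ckap2 fell in both. In Ad-CTRL livers scaling by library totals changed the share of higher calls over all genes from 52.8% to 39.5% (1782 higher, 2730 lower), and the members to 6 higher and 7 lower. No gene of p53 and its feedback passed in either virus, with Trp53 at -0.10 (95% interval -0.44 to 0.25) in Ad-CTRL and -0.05 (-0.38 to 0.28) in Ad-FAT10 livers. Mdm2 stood at 0.12 (-0.06 to 0.31) and -0.10 (-0.28 to 0.08). Trp53inp1 was at -0.48 (-0.91 to -0.05, adjusted p = 0.078) in Ad-CTRL and -0.39 (-0.82 to 0.04) in Ad-FAT10 livers. In Ad-CTRL every Pema liver lay below every CMC liver for Trp53inp1, and its fall passed with no filter on low counts (adjusted p = 0.0148). Ccng1 was at -0.23 (-0.46 to -0.003, adjusted p = 0.107) and 0.04 (-0.18 to 0.27).

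Cdkn1a had the largest rise among the members with pemafibrate in each virus, 1.63 ± 0.24 (3.1-fold, adjusted p = 4.6e-05) in Ad-CTRL and 1.03 ± 0.21 (2.04-fold, adjusted p = 0.00112) in Ad-FAT10 livers. Fas rose by 1.30 ± 0.11 (2.46-fold, adjusted p = 8.04e-08) and 0.72 ± 0.11 (1.64-fold, adjusted p = 9.4e-05). Perp rose by 0.82 ± 0.08 (adjusted p = 5.94e-07) and 0.52 ± 0.08 (adjusted p = 0.000139). In each of these genes every Pema liver lay above every CMC liver of the same virus. Plk2 rose by 0.77 ± 0.14 and 0.54 ± 0.14, and Aen by 0.33 ± 0.10 and 0.46 ± 0.09, the first of these Aen values being lost with library totals (0.25, adjusted p = 0.111). Among members that passed in Ad-CTRL livers and not in Ad-FAT10 livers, Plk3 changed by 0.74 ± 0.21 (adjusted p = 0.00994), Ei24 by 0.52 ± 0.11 (adjusted p = 0.00143) and Ercc5 by 0.29 ± 0.08 (adjusted p = 0.0128). For Plk3 the treatments overlapped in Ad-CTRL livers, at 105 to 128 CPM under CMC and 127 to 236 CPM under pemafibrate. The Ercc5 call was lost with library totals (0.21, adjusted p = 0.0519) and with no filter (0.29, 0.0762). Ddb2 rose in Ad-FAT10 livers, by 0.53 ± 0.14 (adjusted p = 0.00749). Btg2 changed by 0.55 (95% interval 0.02 to 1.09) in Ad-CTRL livers, where every Pema liver lay above every CMC liver, but did not pass (adjusted p = 0.101). That change passed with no filter (adjusted p = 0.0184) and with only the libraries of the groups compared (0.00659). It also passed without Ad-FAT10 Pema replicate 3 (adjusted p = 0.00405), a liver outside that comparison.

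Ckap2 fell with pemafibrate by 1.22 ± 0.27 (adjusted p = 0.00213) in Ad-CTRL and by 1.35 ± 0.19 (adjusted p = 4.16e-05) in Ad-FAT10 livers, with no overlap between treatments. Fdxr fell by 0.54 ± 0.13 (adjusted p = 0.003) in Ad-CTRL livers. The calls of the other falls there were lost on leaving out single livers, although each kept its direction in all 23 alternative fits. Psrc1 fell by 1.56 ± 0.52 (adjusted p = 0.029), but not without Ad-CTRL CMC replicate 4 (-1.17, 0.125) or Ad-CTRL Pema replicate 2 (-1.27, 0.082) or 4 (-1.47, 0.072). Phlda3 fell by 0.97 ± 0.28 (adjusted p = 0.0145), or -0.85 (0.0505) without Ad-CTRL Pema replicate 4. Both of these genes lay below 2 CPM in all 8 Ad-CTRL livers. Dcxr fell by 0.46 ± 0.14 (adjusted p = 0.0155), or -0.40 (0.0523) without Ad-CTRL CMC replicate 4 and -0.41 (0.0536) without Ad-CTRL Pema replicate 3. Ddit4 fell by 0.86 ± 0.29 (adjusted p = 0.0334), a call lost without Ad-CTRL CMC replicate 1 (-0.79, 0.0769), 3 (-0.82, 0.071) or 4 (-0.89, 0.0522) and without Ad-CTRL Pema replicate 2 (-0.81, 0.0768), 3 (-0.74, 0.103) or 4 (-0.91, 0.0525). In Ad-FAT10 livers Bbc3 fell by 0.39 ± 0.11 (adjusted p = 0.0156), or -0.31 (0.0773) without Ad-FAT10 CMC replicate 2 and -0.35 (0.0556) without Ad-FAT10 Pema replicate 2. The numbers in parentheses without a sign are adjusted p values.

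**Figure D5:**
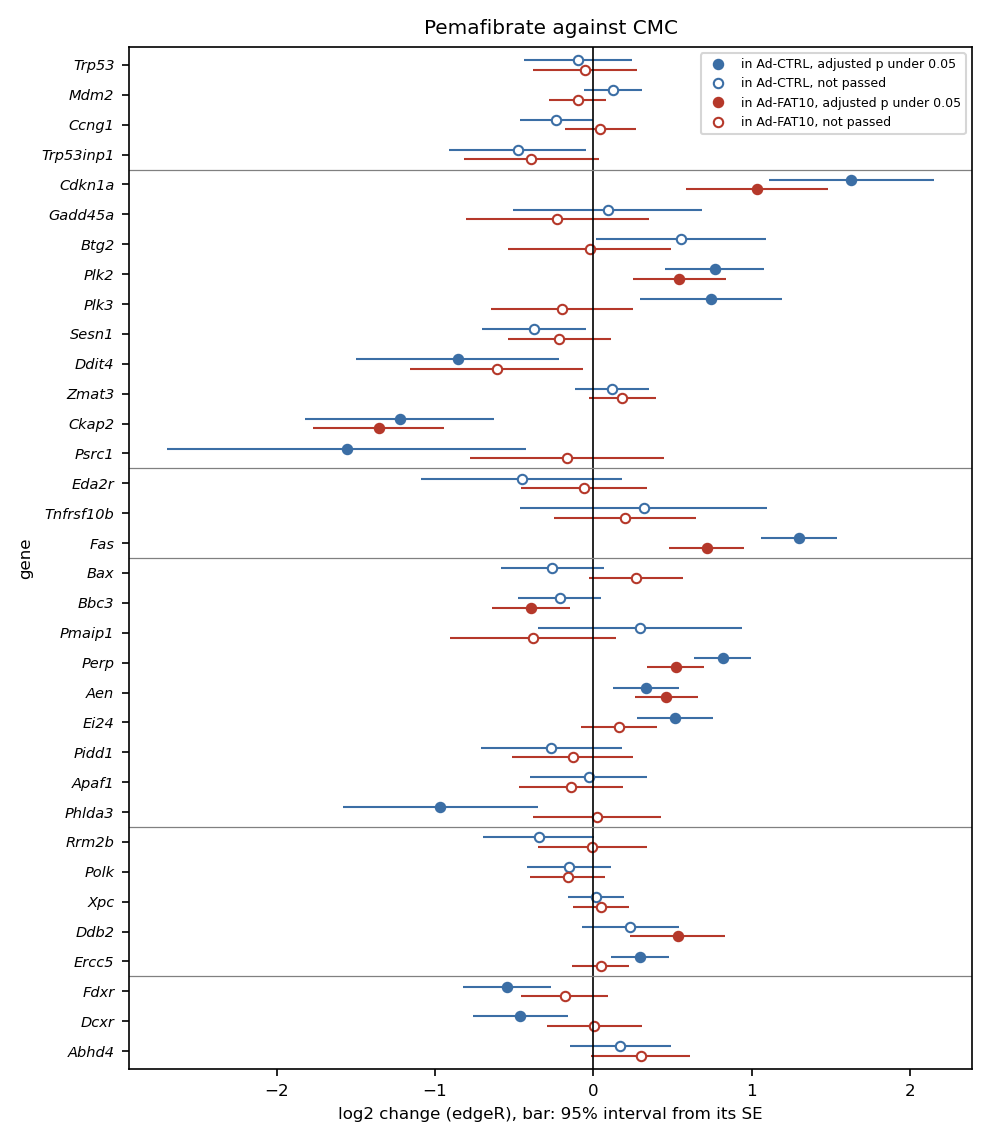
Log2 change of each member with pemafibrate against CMC, separately for the Ad-CTRL and Ad-FAT10 livers, with its 95% interval and filled points where the adjusted p was under 0.05. Cdkn1a, Plk2, Fas, Perp and Aen lie to the right in both viruses, Ckap2 to the left in both, and most other intervals include 0.

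Around the members, most of the 20 mitotic genes fell with pemafibrate in Ad-FAT10 livers and fewer passed in Ad-CTRL livers. In Ad-FAT10 livers 18 fell and 0 rose, with a median of -0.88, and in Ad-CTRL livers 9 fell and 1 rose, with a median of -0.74. Their summed level was 188 to 307 CPM in Ad-FAT10 CMC and 101 to 151 CPM in Ad-FAT10 Pema, and 50.8 to 66.5 and 36.2 to 49.8 CPM in the Ad-CTRL groups, so that the treatments did not overlap in either virus. Ccnb1 fell by 0.92 ± 0.25 with Ad-CTRL and by 1.36 ± 0.18 with Ad-FAT10. Of the 19 other p53 targets tested, 2 rose and 1 fell in Ad-CTRL livers, Gdf15 rising by 1.74 ± 0.33 from 4.22 ± 1.85 to 14 ± 3.92 CPM (SD, n = 4), and 1 rose in Ad-FAT10 livers. Of the 18 regulators tested, 2 rose and 1 fell in Ad-CTRL, and 2 rose and 2 fell in Ad-FAT10 livers. Of the 17 partners of p21, 1 rose and 4 fell in Ad-CTRL livers, and 1 rose and 6 fell in Ad-FAT10 livers. Of the 21 BCL2 and caspase genes, 3 rose and 8 fell in Ad-CTRL livers and 2 rose and 7 fell in Ad-FAT10 livers. Beside these counts, 16.2% of all genes tested rose and 14.4% fell in Ad-CTRL livers, and 12.9% and 12.5% in Ad-FAT10 livers. The 5 tested neutrophil markers fell with pemafibrate in Ad-FAT10 livers, and their part in the members' changes was not tested.

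The interaction asks if the response to pemafibrate differed between the viruses, as the log2 change in Ad-FAT10 minus that in Ad-CTRL livers. None of the 34 members passed it in edgeR, where 0.156% of all genes tested did (23 genes, 4 higher and 19 lower, or 5 and 13 with library totals), and DESeq2 called none of the members either. At an unadjusted p under 0.05 there were 8 members (Plk3, Psrc1, Fas, Bax, Perp, Ei24, Phlda3 and Dcxr), beside 10.8% of all genes, and the lowest adjusted p was 0.169. Fas had that value, with a difference of -0.59 (95% interval -0.92 to -0.25), its rise with pemafibrate being larger in Ad-CTRL than in Ad-FAT10 livers. Plk3 differed by -0.94 (-1.57 to -0.31, adjusted p = 0.239), which passed with no filter on low counts (-0.92, adjusted p = 0.0271). For Cdkn1a the difference was -0.60 (-1.28 to 0.08), for Trp53 0.04 (-0.43 to 0.52) and for Mdm2 -0.22 (-0.48 to 0.03), with intervals that include 0.

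Levels between genes can be compared only per length. On CPM per kilobase of exon in Ad-CTRL CMC livers, the members ran from Dcxr at 83.2 ± 10 through Perp at 54.2 ± 1.27, Plk3 at 46.1 ± 4.77 and Ei24 at 42.3 ± 3.05 down to Tnfrsf10b at 0.0894 ± 0.00449 (SD, n = 4). Plk3 and Ei24 did not differ beyond their spread. Cdkn1a ranked 22 of the 34 there, at 1.35 ± 0.131, and ranked 15 in the Ad-CTRL Pema livers, 10 with Ad-FAT10 under vehicle and 5 in Ad-FAT10 Pema livers, where it stood at 26.6 ± 4.64. Perp ranked first in both pemafibrate groups. Eda2r and Tnfrsf10b, whose relative changes were the largest under CMC with that of Cdkn1a, were thus among the least abundant members in control livers.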

How the data were processed

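Poly(A) RNA of 16 livers was sequenced on DNBSEQ after dUTP strand marking, per the labels' protocols. For each liver the authors deposited raw read counts by Ensembl gene, not normalized. Per the submitters' processing notes the build was GRCm39 and tools included DESeq2 (2.11.40.6 and 1.36.0) and STAR 2.7.6. The counting program, annotation and strand setting were not given in the sources used here. Symbols came from GENCODE M21 (GRCm38), used for names, exon lengths and overlaps only, and matched 52083 identifiers (94%). Of the genes listed, 25938 had no count. Groups came from the sample titles.

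The counts were tested with edgeR 4.0.16 and limma 3.58.1 in R 4.3.3: filterByExpr, TMM factors (0.831 to 1.19), 1 mean per group over all 16 libraries, quasi-likelihood tests and Benjamini-Hochberg adjustment over 14770 genes. The common biological coefficient of variation was 0.151. The SE is the absolute log2 change over the root of F, so it restates the test. The 95% intervals take this SE with 12 residual degrees of freedom and can differ slightly from the test. For Rrm2b with pemafibrate in Ad-CTRL livers the interval was -0.696 to 0.00414, beside an unadjusted edgeR p of 0.0452. No 2 replicates were identical (chi-square per gene 14.52 to 119 over 24 pairs). The model was tested on simulated counts. DESeq2 1.42.0, other scalings and filters, a replicate block and 16 fits that each left out a library were the alternatives. The members and all lists were chosen with earlier results of these data known. All members may be named; values in every liver are given for Trp53, Mdm2, Cdkn1a and Bax and up to 3 members per role with the largest change, and of the other lists up to 5 genes with the smallest p under CMC, some of which are not reported here. Perp by group, Mdm4, and genes named in other contrasts were chosen after their values were seen. The labels name separate mice but no batch, so p values measure the spread between these livers.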

Additional observations from a re-analysis of the deposited data

Results flagged for a closer look

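In 6 of 136 groups of 4 livers, 1 liver stood apart from the other 3 in a member's log2 CPM (prior count 2), and chance alone flags about 5% of such groups. Gadd45a was high in Ad-CTRL CMC replicate 1, at 2.47 beside 1.63 to 1.75 in the other livers of its group, and low in Ad-FAT10 Pema replicate 4, at 1.03 beside 1.8 to 1.96. Zmat3 was high in Ad-CTRL Pema replicate 1, at 2.98 beside 2.77 to 2.8. Fas was high in Ad-FAT10 Pema replicate 1, at 5.68 beside 5.46 to 5.48. Bbc3 was high in Ad-CTRL Pema replicate 2, at 3.07 beside 2.77 to 2.82. Ddb2 was high in Ad-FAT10 Pema replicate 4, at 2.37 beside 1.98 to 2.02. Of these genes only Gadd45a stood apart in more than 1 group.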

How the results depend on the processing

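In the order used above (Ad-FAT10 under CMC, then under pemafibrate, pemafibrate in Ad-CTRL, then in Ad-FAT10 livers), 29, 25, 14 and 8 members passed, of which 24, 24, 8 and 7 passed in all 23 alternative fits. Leaving out 1 library gave 26 to 30, 25 to 26, 11 to 16 and 7 to 10 members, and moved no called value by more than 1.31-fold. For the interaction, 23 genes passed, but 93 with no filter on low counts, 120 with DESeq2 and 11 (without Ad-CTRL Pema replicate 4) to 36 (without Ad-CTRL Pema replicate 1) on leaving out 1 library; the cause was not tested. Members passing the interaction numbered 1 with no filter (Plk3) and 0 to 1 on leaving out a library (Btg2 without Ad-FAT10 Pema replicate 3, -1.03, adjusted p 0.0365). Library totals turned Xpc to 0.0531 (Ad-FAT10 under CMC) and Ercc5 from -0.139 to 0.222 (under pemafibrate, adjusted p 0.0226). Replicate numbers did not pair the livers (same-number correlations -0.172 to 0.172, 3 of 24 over 0.1, 4 of 16 libraries closest to their own number). With the replicate block 28, 26, 14, 8 and 0 members passed, Rrm2b being lost under CMC (adjusted p 0.0545) and Xpc gained under pemafibrate (0.046). Of 94 member results that did not pass, 19 passed in at least 1 alternative. Among these were the changes of Btg2 and Pmaip1 with pemafibrate in Ad-FAT10 livers, without Ad-FAT10 Pema replicate 3. Btg2 went from -0.0229 to -0.473 (adjusted p 0.0199) and Pmaip1 from -0.381 to -0.73 (adjusted p 0.0118). Depth limits Psrc1 most, with levels down to 0.0534 CPM.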
